A study of Mus musculus with 12 samples.

Results

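Collagens are the triple-helical proteins that carry most of the tensile strength of the extracellular matrix. Of the 17052 genes measured in mouse liver, 42 are collagen chains, taken here as every gene whose symbol is Col, a number, the letter a and a number. Each had a probe set naming that gene alone and a mean log2 intensity of at least 5 across all 12 arrays. Where a gene had more than 1 such probe set, as did the 4 genes Col5a1, Col6a5, Col6a6 and Col20a1, the brightest was used. All 42 collagens with a probe set of their own reached the minimum, and 2 further probe sets that name a collagen together with another gene were left out. By structure, 11 are fibrillar, 6 form the basement membrane network, 8 are FACITs, 6 form beaded filaments, 3 form hexagonal networks, 2 are multiplexins, 4 are transmembrane and 2 belong to no larger class.

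All mice were 2.5 months old females of the BALB/cByJ strain, either carrying the Pml gene (Pml wt) or lacking it (Pml KO). Pml encodes the protein that organises PML nuclear bodies. Acetaminophen, 300 mg/kg in warmed PBS, was injected intraperitoneally, and each genotype was sampled untreated, at 2 h and at 6 h, with 2 arrays in each of the 6 groups. Acetaminophen overdose injures hepatocytes through a reactive metabolite made by cytochrome P450 enzymes. Whether the untreated mice received a vehicle injection, which part of Pml the KO allele lacks and whether each array stands for a separate animal are points the labels leave unstated. With that, p-values measure only the spread between these samples.

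Fibrillar collagens I, III and V are assembled outside the cell into cross-banded fibres. Type IV chains form the sheet-like network of basement membranes, type VI chains form beaded filaments, and FACITs such as type XII sit on the surface of fibrils rather than forming them. In the liver these chains come mainly from stellate cells and portal fibroblasts, with basement membrane chains also made by endothelial and biliary cells. Type XVIII is also made by hepatocytes, and stellate cells that become myofibroblasts are the main source of fibrillar collagen in scarring liver.

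Pml itself read 7.82 to 8.46 (log2) on the 6 wt arrays and 7.09 to 7.97 on the 6 KO arrays, and the array labelled untreated KO replicate 2, at 7.97, lay within the wt range. KO 6 h replicate 2 stood apart on the first principal component, at 19.8 against 39.7 to 44.8 for the other arrays at 6 h. The hepatocyte markers gave a summed intensity of 42925 to 49827 across the groups. In whole liver, fewer cells of a type and less RNA per cell cannot be told apart.

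Most collagens gave low signals. Of the 42, 23 had a mean below 6.32, the lowest of the array medians, which ran up to 6.49. The members nearest the minimum of 5 were Col8a1 at 5.11, Col8a2 at 5.21, Col9a2 at 5.27, Col5a3 at 5.35, Col4a6 at 5.39 and Col4a3 at 5.47, and no collagen lay just below it.

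After acetaminophen Col12a1, Col4a1 and Col4a2 rose in wt liver at 6 h, Col12a1 and Col4a1 in KO liver at 6 h, Col12a1 in wt liver at 2 h, and Col8a2 and Col19a1 in KO liver at 2 h. More collagens fell than rose in each comparison, at shares near or below those of all genes. Here called means that limma gave an adjusted p under 0.05 over the 17052 genes, and differences are on the log2 scale with the standard error of the fit. In wt liver at 2 h, 1 collagen rose and 2 fell, where 12.7% of all genes were called (6.53% higher and 6.17% lower). The median over the 42 was 0.01 and over all genes 0.02. In wt liver at 6 h, 3 rose and 10 fell, with 38.4% of all genes called (16.5% higher and 22% lower). The medians were -0.10 and -0.05. In KO liver at 2 h, 2 rose and 8 fell, with 31.4% of all genes called (10.6% higher and 20.8% lower) and medians of -0.12 and -0.06. In KO liver at 6 h, 2 rose and 6 fell, with 34.9% of all genes called (15.8% higher and 19.1% lower) and medians of -0.20 and -0.05. The shares of collagens called, 7.14%, 31%, 23.8% and 19% in that order, lay below the share of all genes in each comparison. The 2 h and 6 h comparisons of a genotype share its untreated arrays.

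**Figure D1:**
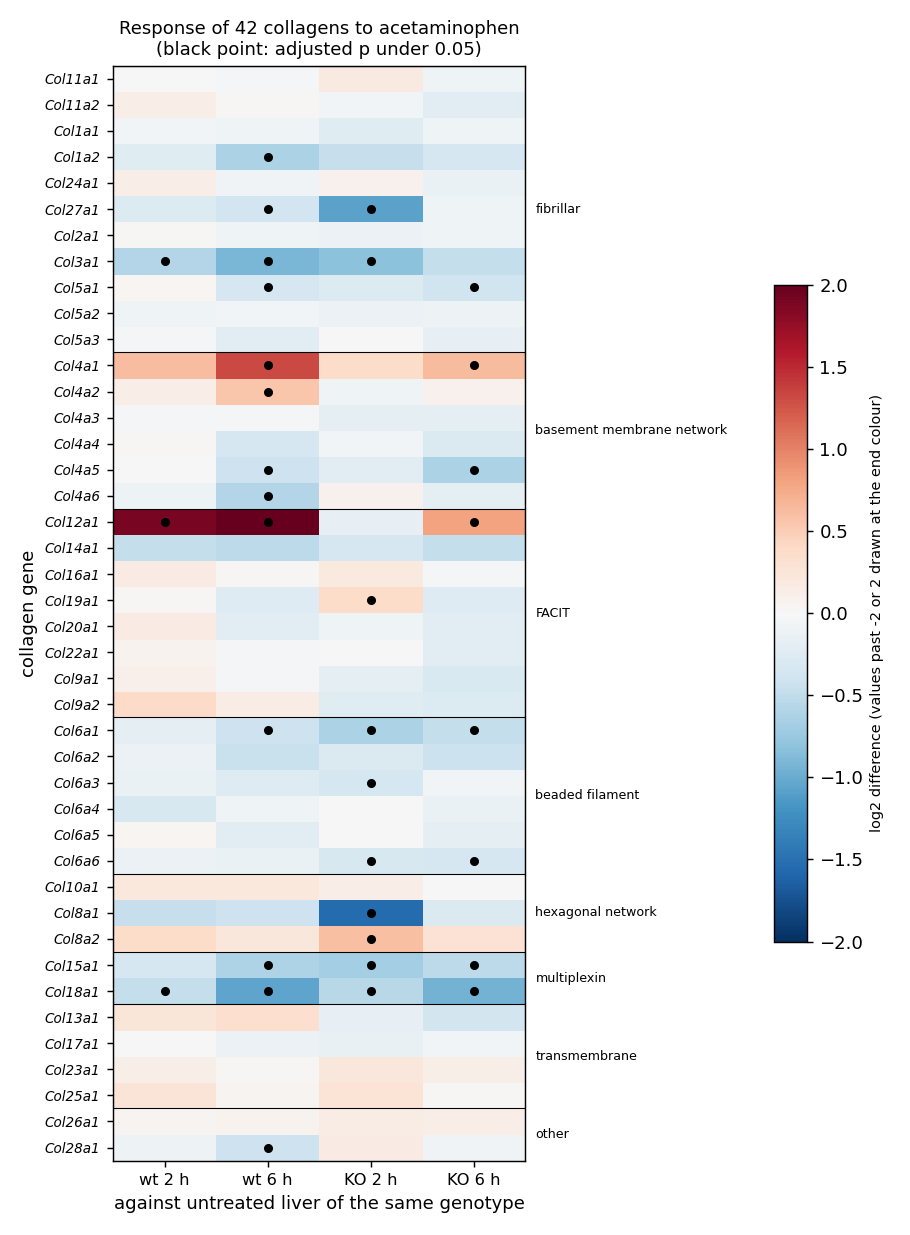
Log2 difference of each of the 42 collagens, by structural class, in wt and KO liver at 2 h and 6 h against untreated liver of the same genotype; colour gives the difference and a black point marks an adjusted p under 0.05. Col12a1 has the deepest red in wt liver, at 1.90 and 2.02, and none in KO liver at 2 h, at -0.17, while Col18a1 is blue in all 4 columns.

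Col12a1 encodes type XII collagen, a FACIT that binds along fibrillar collagen and is prominent in tissues under mechanical load. In wt liver Col12a1 read 5.23 and 5.34 untreated, 7.07 and 7.31 after 2 h, and 7.26 and 7.35 after 6 h. In KO liver Col12a1 read 5.73 and 5.49 untreated, 5.35 and 5.52 after 2 h, and 6.52 and 6.30 after 6 h. All 4 treated wt arrays lay above every other array, the KO arrays at 2 h stayed among the untreated ones, and the KO arrays at 6 h fell between.

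Col12a1 thus rose by 1.90 ± 0.13 in wt liver at 2 h, a 3.75-fold change (adjusted p = 4.66e-05), and by 2.02 ± 0.13 at 6 h, or 4.05-fold (adjusted p = 7.34e-06). In KO liver the difference at 2 h was -0.17, with a 95% interval of -0.46 to 0.13, and the rise at 6 h was 0.80 ± 0.13, or 1.74-fold (adjusted p = 0.00114). The KO response minus the wt response was -2.07 ± 0.19 at 2 h (adjusted p = 0.00393) while at 6 h it was -1.22 ± 0.19 (adjusted p = 0.025). Col12a1 was the only collagen called in either of these differences. Of all genes, 0.0293% were called in the first (0.0117% higher, 0.0176% lower) and 0.487% in the second (0.088% higher, 0.399% lower). Only 5 genes were called in the first of them, Arrdc3, Cetn4, Col12a1, Id2 and Sftpa1, and Col12a1 had the second-smallest p. Col12a1 was singled out with this difference already known, so these values describe it and are not independent support.

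Between genotypes, the difference of Col12a1 in untreated liver was 0.32, with a 95% interval of 0.03 to 0.62, and was not called (adjusted p = 1). KO liver was lower than wt by -1.75 ± 0.13 at 2 h (3.36-fold, adjusted p = 0.000701) and by -0.89 ± 0.13 at 6 h (1.86-fold, adjusted p = 0.00577). The 2 h difference between responses kept its call under every alternative that tested the gene, with adjusted p from 0.00272 to 0.0435, and stood at -2.19 (adjusted p = 0.0123) without untreated KO replicate 2. The 6 h difference between responses lost its call without any 1 of 6 arrays, namely either untreated array of either genotype, wt 6 h replicate 1 or KO 6 h replicate 2, with adjusted p of up to 0.108. The KO and wt difference at 6 h lost its call when only the 2 compared groups were fitted (adjusted p = 0.0517).

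**Figure D2:**
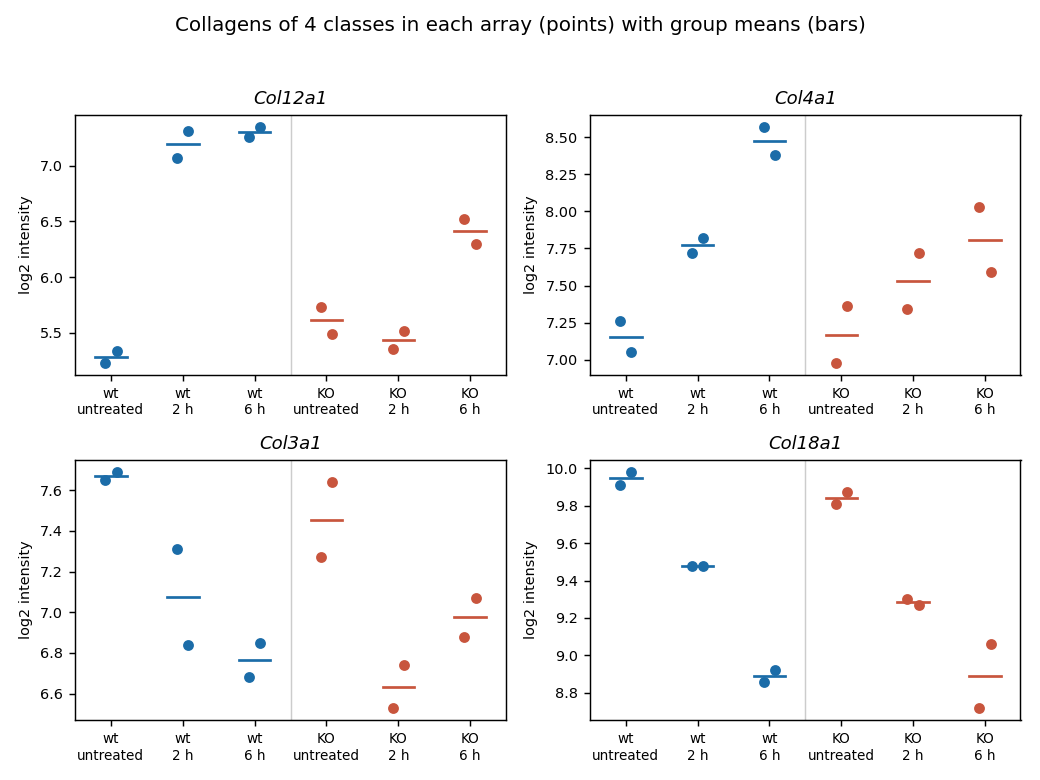
Log2 intensity of Col12a1, Col4a1, Col3a1 and Col18a1 on the 12 arrays, by genotype and time; each point is 1 array, bars are group means and each panel has its own scale. Col12a1 lies at 7.07 to 7.35 on the 4 treated wt arrays and at 5.35 and 5.52 on the KO arrays at 2 h, and Col3a1 is lower on every treated array than on the untreated arrays of its genotype.

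**Figure D3:**
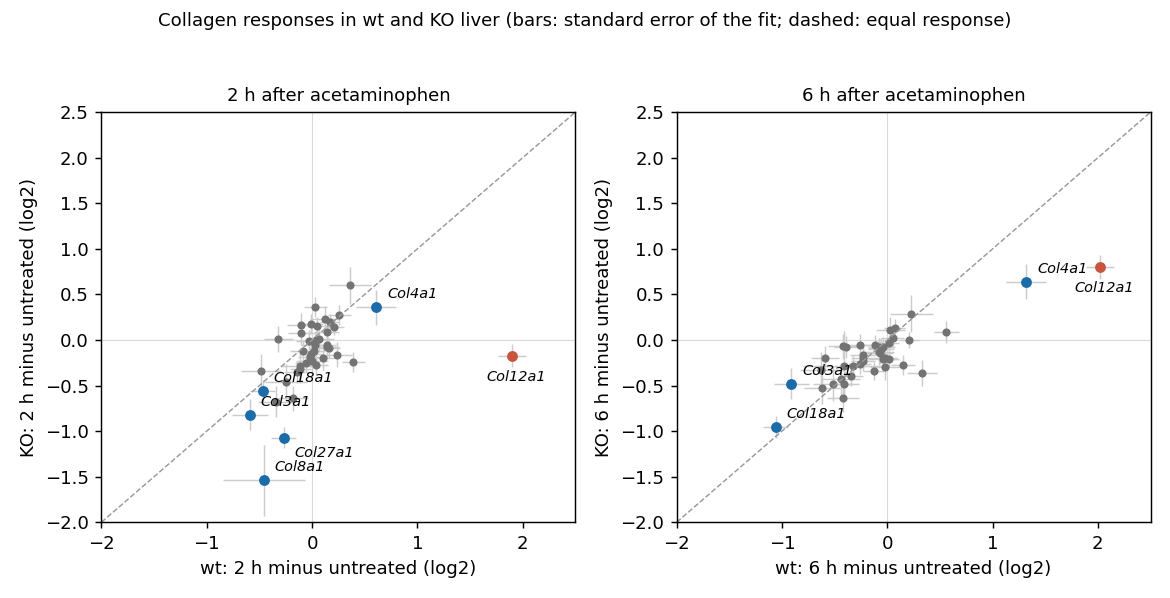
Log2 difference against untreated liver in wt (horizontal) and KO (vertical) for each of the 42 collagens at 2 h and 6 h, with standard errors of the fit and the line of equal response. Only the collagens labelled in each panel are coloured. Col12a1 lies far below the line at both times, with differences between responses of -2.07 and -1.22.

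Of the 11 fibrillar collagens, 1 fell in wt liver at 2 h, 4 at 6 h, 2 in KO liver at 2 h and 1 at 6 h, and none rose. These are 9.09%, 36.4%, 18.2% and 9.09% of the class, against 6.17%, 22%, 20.8% and 19.1% of all genes called lower. In either direction 12.7%, 38.4%, 31.4% and 34.9% of all genes were called. Their medians were -0.03, -0.08, -0.12 and -0.14, and over all genes 0.02, -0.05, -0.06 and -0.05. Col3a1, whose chains make the type III collagen of reticular fibres, had 3 of these calls.

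In wt liver Col3a1 read 7.65 and 7.69 untreated, 7.31 and 6.84 after 2 h, and 6.68 and 6.85 after 6 h. In KO liver Col3a1 read 7.27 and 7.64 untreated, 6.53 and 6.74 after 2 h, and 6.88 and 7.07 after 6 h. In both genotypes every treated array lay below both untreated arrays. Col3a1 fell by 0.59 ± 0.17 in wt liver at 2 h (adjusted p = 0.0481), by 0.91 ± 0.17 at 6 h (1.88-fold, adjusted p = 0.00219) and by 0.82 ± 0.17 in KO liver at 2 h (1.77-fold, adjusted p = 0.00587). At 6 h in KO liver the difference was -0.48 (95% interval -0.86 to -0.10, adjusted p = 0.0524). The wt 2 h call was lost without any 1 of 9 arrays and in 3 other settings, with adjusted p of up to 0.279 when wt 2 h replicate 2 was left out, and the KO 2 h call was lost without untreated KO replicate 2 (adjusted p = 0.0543).

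Col1a1 and Col1a2 encode the alpha 1 and alpha 2 chains of type I collagen. Col1a1 in wt liver read 6.78 and 6.85 untreated, 6.77 and 6.74 after 2 h, and 6.73 and 6.73 after 6 h. Col1a1 in KO liver read 6.68 and 6.87 untreated, 6.47 and 6.59 after 2 h, and 6.64 and 6.76 after 6 h. The treated arrays lay slightly below the untreated ones in wt liver and overlapped them in KO liver at 6 h. The differences were -0.06, -0.08, -0.25 and -0.08 in the 4 comparisons, none called, and the 95% interval at 6 h in wt liver ran from -0.31 to 0.15. Col1a2 in wt liver read 7.81 and 7.77 untreated, 7.69 and 7.39 after 2 h, and 7.20 and 7.11 after 6 h. Col1a2 in KO liver read 7.31 and 7.89 untreated, 6.98 and 7.29 after 2 h, and 7.10 and 7.43 after 6 h. The untreated and 6 h groups of wt did not overlap, and the untreated KO arrays were too far apart to separate from KO 6 h. Col1a2 fell by 0.63 ± 0.20 in wt liver at 6 h (1.55-fold, adjusted p = 0.0275). That call was lost without any 1 of the 4 arrays compared (adjusted p up to 0.11), and in KO liver the differences were -0.46 at 2 h and -0.33 at 6 h, neither called.

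Col27a1, a short fibrillar chain of cartilage, fell in each genotype at one time. In wt liver Col27a1 read 6.21 and 6.33 untreated, 5.95 and 6.05 after 2 h, and 5.89 and 5.86 after 6 h. In KO liver Col27a1 read 6.37 and 6.70 untreated, 5.55 and 5.38 after 2 h, and 6.44 and 6.47 after 6 h. The KO arrays at 2 h were the lowest of the 12, and by 6 h the KO arrays were back among the untreated ones. Col27a1 fell by 1.07 ± 0.12 in KO liver at 2 h (2.10-fold, adjusted p = 0.000432) and by 0.39 ± 0.12 in wt liver at 6 h (adjusted p = 0.0302). At 6 h it was higher in KO than in wt by 0.58 ± 0.12 (adjusted p = 0.0226). The difference between responses at 2 h was -0.80 ± 0.18 and was not called (adjusted p = 0.162). The wt 6 h call was lost without any 1 of the 4 arrays compared (adjusted p up to 0.164), and the genotype call without either wt 6 h array or KO 6 h replicate 2 (adjusted p up to 0.122) and with the compared groups alone (0.0809).

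Col5a1, a chain of type V collagen that starts fibrils and limits their width, gave small falls. Col5a1 in wt liver read 6.71 and 6.77 untreated, 6.76 and 6.80 after 2 h, and 6.39 and 6.42 after 6 h. Col5a1 in KO liver read 6.63 and 6.88 untreated, 6.38 and 6.59 after 2 h, and 6.40 and 6.31 after 6 h. The arrays at 6 h lay below the untreated ones in both genotypes. Col5a1 fell by 0.34 ± 0.11 in wt (adjusted p = 0.0382) and by 0.40 ± 0.11 in KO liver (adjusted p = 0.0209) at 6 h. Its second probe set did not move the same way, with group means of 5.38 untreated and 5.49 at 6 h in wt liver, and both calls were lost when the probe sets were averaged (adjusted p = 0.371 and 0.306), after quantile normalization and with the compared groups alone. They were also lost without any 1 of 6 arrays in wt and any 1 of 3 in KO liver (adjusted p up to 0.161 and 0.168). The other fibrillar chains, Col2a1, Col5a2, Col5a3, Col11a1, Col11a2 and Col24a1, were called in none of the 10 comparisons, and no difference of theirs or of Col1a1 lay outside -0.25 to 0.18 after treatment.

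The stretches before the annotated starts of Col1a2 and Col3a1, both lower in wt liver at 6 h, are shown as RefSeq gives them for GRCm38.p6, 250 bases each, 5′ to 3′ on the plus strand, with motif matches in capitals. Col1a2 lies at chr6:4505368-4505617 and Col3a1 at chr1:45311288-45311537.
Col1a2: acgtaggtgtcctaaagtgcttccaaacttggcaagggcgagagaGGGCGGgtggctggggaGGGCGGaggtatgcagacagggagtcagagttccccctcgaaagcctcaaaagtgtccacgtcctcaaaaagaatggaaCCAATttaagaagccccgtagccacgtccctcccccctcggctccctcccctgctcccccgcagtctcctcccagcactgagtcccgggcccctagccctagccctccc
Col3a1: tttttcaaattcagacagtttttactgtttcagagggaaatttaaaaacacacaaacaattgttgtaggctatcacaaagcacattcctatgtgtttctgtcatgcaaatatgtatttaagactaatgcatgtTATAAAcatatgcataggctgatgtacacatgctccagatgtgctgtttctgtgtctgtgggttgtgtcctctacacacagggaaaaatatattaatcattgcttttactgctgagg
Col1a2 holds the GC box GGGCGG 205 and 188 bases before the start and CCAAT 109 bases before it, while Col3a1 holds TATAAA 117 bases before it and neither of the others. A promoter entry was found for 34 of the 42 collagens, in 37 windows of 300 bases that end 50 bases past the start. Both strands were searched for the 4 motifs, which share no letters in these sequences. GGGCGG was in 22 of the 37 windows (59.5%) and in 35.7% of all 32851 windows, CCAAT in 12 (32.4%) and 37.4%, TATAAA in 5 (13.5%) and 13.6%, and the AP-1 motif TGANTCA in 1 (2.7%) and 7.81%. Col1a1, Col2a1, Col4a3, Col5a2, Col12a1, Col14a1, Col22a1 and Col26a1 had no entry.

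Of the 6 basement membrane chains, none was called at 2 h in either genotype. At 6 h 2 rose and 2 fell in wt liver, and 1 rose and 1 fell in KO liver. Chains called at 6 h made up 66.7% of this small class in wt and 33.3% in KO liver. Of all genes 38.4% and 34.9% were called there, and 12.7% and 31.4% at 2 h. Col4a1 and Col4a2, which together make the ubiquitous type IV trimer, were the ones that rose.

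In wt liver Col4a1 read 7.26 and 7.05 untreated, 7.72 and 7.82 after 2 h, and 8.57 and 8.38 after 6 h. In KO liver Col4a1 read 6.98 and 7.36 untreated, 7.34 and 7.72 after 2 h, and 8.03 and 7.59 after 6 h. The 3 wt groups did not overlap, and the highest arrays of all were the wt arrays at 6 h. Col4a1 rose by 1.32 ± 0.19 in wt liver at 6 h (2.49-fold, adjusted p = 0.000382) and by 0.64 ± 0.19 in KO liver (1.55-fold, adjusted p = 0.0229). At 2 h the differences were 0.61 in wt (95% interval 0.20 to 1.03, adjusted p = 0.0559) and 0.36 in KO liver. KO minus wt at 6 h was -0.66 (95% interval -1.08 to -0.25, adjusted p = 0.0519) and the difference between responses was -0.68 (adjusted p = 0.24), so neither was called. The KO call was lost when replicate 1 of either untreated KO or KO 6 h was left out (adjusted p up to 0.175) and with the compared groups alone (0.0603).

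In wt liver Col4a2 read 7.15 and 7.17 untreated, 7.27 and 7.33 after 2 h, and 7.74 and 7.70 after 6 h. In KO liver Col4a2 read 7.03 and 7.23 untreated, 6.91 and 7.18 after 2 h, and 7.31 and 7.12 after 6 h. The wt arrays at 6 h lay above all others, and the KO groups overlapped. Col4a2 rose by 0.56 ± 0.12 in wt liver at 6 h (1.48-fold, adjusted p = 0.0045), and the KO difference was 0.09 (95% interval -0.18 to 0.36). KO was lower than wt at 6 h by -0.51 ± 0.12 (adjusted p = 0.0317), but the difference between responses, -0.47, was not called (adjusted p = 0.215). The genotype call was lost with the compared groups alone and without any 1 of 5 arrays, both wt 2 h, both wt 6 h and KO 6 h replicate 2 (adjusted p up to 0.178).

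Col4a1 and Col4a2 are neighbours on chromosome 8 and are transcribed in opposite directions. Their annotated starts lie 21 bases apart, at 11312826 on the minus strand and 11312805 on the plus strand (RefSeq, GRCm38.p6), so the sequence just before the Col4a2 start lies past the start of Col4a1. A stretch of 30 bases of it, chr8:11312765-11312794, is shown on the plus strand, with CCAAT, 32 bases before the Col4a2 start, in capitals. Col4a2 also holds GGGCGG 192 and 48 bases before its start, outside that stretch.
Col4a2: ggagctccCCAATttgttggcgctgccccc

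Col4a5 and Col4a6, also neighbours, moved the other way. Their chains form the type IV networks of kidney and of smooth muscle basement membranes. Col4a5 in wt liver read 6.03 and 5.93 untreated, 6.13 and 5.83 after 2 h, and 5.50 and 5.63 after 6 h. Col4a5 in KO liver read 6.05 and 6.17 untreated, 5.74 and 6.02 after 2 h, and 5.31 and 5.63 after 6 h. In both genotypes the arrays at 6 h were the lowest. Col4a5 fell by 0.42 ± 0.15 in wt (adjusted p = 0.0475) and by 0.64 ± 0.15 in KO liver (adjusted p = 0.00764). The wt call was lost in 5 of 7 other settings and without any 1 of 6 arrays (adjusted p up to 0.193), and the KO call without KO 6 h replicate 1 or the second untreated KO array (adjusted p up to 0.0685).

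Col4a6 in wt liver read 5.54 and 5.66 untreated, 5.63 and 5.36 after 2 h, and 4.98 and 5.03 after 6 h. Col4a6 in KO liver read 5.50 and 5.40 untreated, 5.38 and 5.68 after 2 h, and 5.28 and 5.23 after 6 h. Its wt arrays at 6 h were the lowest of the 12, near the minimum mean of 5 set for testing. Col4a6 fell by 0.59 ± 0.13 in wt liver at 6 h (adjusted p = 0.00447), a call kept under every alternative that tested the gene. Col4a3 and Col4a4, which make the network of kidney glomeruli, were not called, with differences between -0.33 and 0.03 after treatment.

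**Figure D4:**
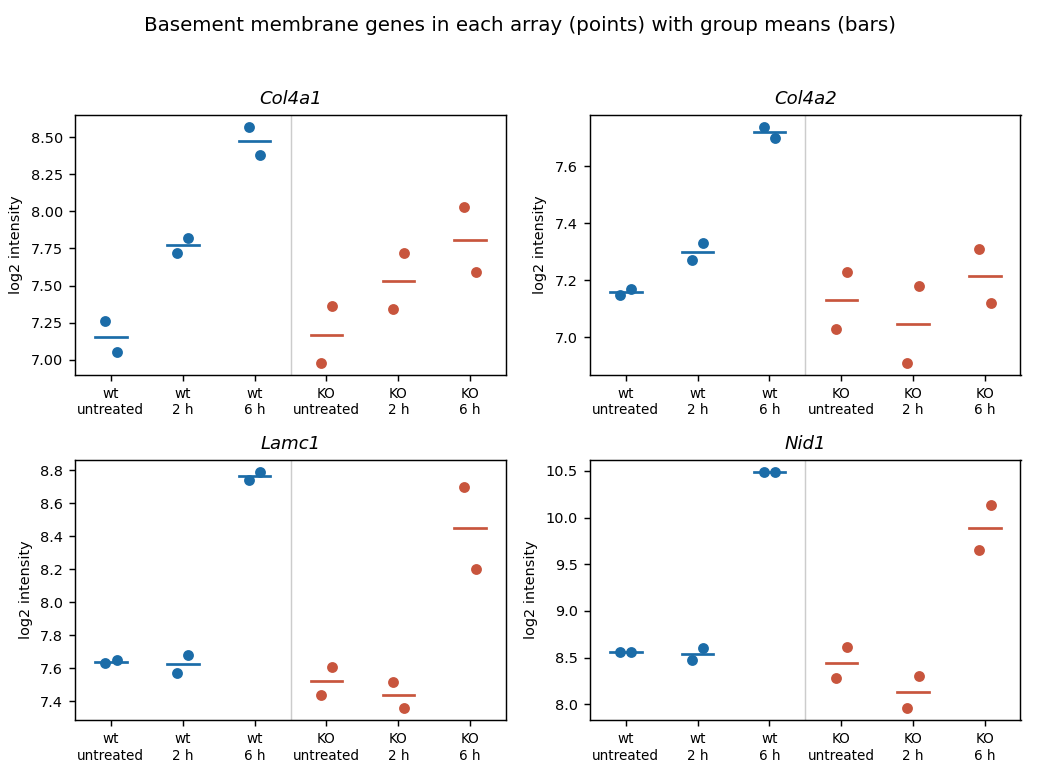
Log2 intensity of the collagens Col4a1 and Col4a2 and of their partners Lamc1 and Nid1 on the 12 arrays, by genotype and time; each point is 1 array, bars are group means and each panel has its own scale. Col4a1 reaches 8.57 and 8.38 in wt liver at 6 h against 7.26 and 7.05 untreated, and Nid1 reaches 10.49 on both of these arrays.

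Of 13 non-collagen partners of the basement membrane, 1 rose and 1 fell in wt liver at 2 h, and 4 rose and 3 fell at 6 h. In KO liver 1 rose and 4 fell at 2 h, and 4 rose and 4 fell at 6 h. That is 15.4%, 53.8%, 38.5% and 61.5% of the list called, against 12.7%, 38.4%, 31.4% and 34.9% of all genes. Nid1, the nidogen that links laminin to type IV collagen, read 8.56 on both untreated wt arrays and 10.49 on both at 6 h. In KO liver Nid1 read 8.28 and 8.61 untreated and 9.65 and 10.13 at 6 h. It rose by 1.94 ± 0.17 in wt (adjusted p = 3.37e-05) and by 1.45 ± 0.17 in KO liver (adjusted p = 0.000183). Lamc1, the common laminin gamma chain, rose by 1.13 and 0.92 at 6 h in wt and KO. Lamb3, a chain of the laminin that anchors epithelia, rose by 3.10 and 1.95 in wt liver at 2 h and 6 h, and by 2.36 and 0.84 in KO liver. Lamb3 was lower in KO than in wt at 6 h by -1.25 ± 0.22 (adjusted p = 0.00995). The vessel laminin chain Lama4 fell by 0.59 and 0.62 in wt liver and by 0.62 in KO liver at 2 h, and the perlecan gene Hspg2 fell in wt liver at 6 h by 0.36 and in KO liver at both times, by 0.52 and 0.34.

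Apart from Col12a1, the FACITs had few calls. Col14a1, the relative of Col12a1 that also coats fibrils, ranged from 8.71 to 9.62 over the 12 arrays, with differences of -0.48 and -0.52 in wt and -0.34 and -0.48 in KO liver at 2 h and 6 h. None was called, the nearest being wt at 6 h (adjusted p = 0.0501). Col12a1 and Col14a1 therefore lay on opposite sides of 0 in wt liver at both times.

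Col9a2, a chain of cartilage type IX collagen, was the other FACIT with a genotype difference, at signals close to the minimum. Col9a2 in wt liver read 5.30 and 5.23 untreated, 5.62 and 5.67 after 2 h, and 5.57 and 5.27 after 6 h. Col9a2 in KO liver read 5.19 and 5.33 untreated, 5.04 and 5.01 after 2 h, and 4.97 and 5.02 after 6 h. The treated KO arrays lay below all treated wt arrays. KO was lower than wt by -0.62 ± 0.11 at 2 h (adjusted p = 0.0323) and by -0.42 ± 0.11 at 6 h (adjusted p = 0.0466). The 2 h call was lost with the compared groups alone (0.0928) and without any 1 of 7 arrays (adjusted p up to 0.199). The 6 h call was lost in 6 of 7 other settings (up to 0.176) and without any 1 of 11 arrays (up to 0.29).

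Col19a1 in wt liver read 5.79 and 5.96 untreated, 5.95 and 5.86 after 2 h, and 5.66 and 5.56 after 6 h. Col19a1 in KO liver read 5.80 and 5.86 untreated, 6.30 and 6.08 after 2 h, and 5.62 and 5.52 after 6 h. The KO arrays at 2 h were the highest, with a rise of 0.36 ± 0.11 (adjusted p = 0.0314) that was lost without either untreated KO array or KO 2 h replicate 1 (adjusted p up to 0.178). Col9a1, Col16a1, Col20a1 and Col22a1 were called in no comparison.

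Of the 6 beaded filament collagens, none was called in wt liver at 2 h, 1 fell at 6 h, 3 fell in KO liver at 2 h and 2 at 6 h. Of all genes 6.17%, 22%, 20.8% and 19.1% fell in these comparisons, against 0%, 16.7%, 50% and 33.3% of this small class. Col6a1, a core chain of type VI collagen, read 7.05 on both untreated wt arrays, 6.88 and 6.87 after 2 h, and 6.84 and 6.44 after 6 h. Col6a1 in KO liver read 7.04 and 7.06 untreated, 6.30 and 6.52 after 2 h, and 6.45 and 6.70 after 6 h. All 8 treated arrays lay below all 4 untreated arrays. It fell by 0.41 ± 0.14 in wt liver at 6 h (adjusted p = 0.0419), by 0.64 ± 0.14 in KO liver at 2 h (1.56-fold, adjusted p = 0.00721) and by 0.48 ± 0.14 at 6 h (adjusted p = 0.0243). These calls were lost without any 1 of 7 arrays, without KO 2 h replicate 1, and without any 1 of 3 arrays, with adjusted p of up to 0.289, 0.0513 and 0.16.

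Among the 34 collagens with a promoter entry, Col6a1 alone held the AP-1 motif, the letters TGANTCA, in its window. The 250 bases before its start, at chr10:76726045-76726294, are shown 5′ to 3′ on the minus strand with that match, 90 bases before the start, in capitals.
Col6a1: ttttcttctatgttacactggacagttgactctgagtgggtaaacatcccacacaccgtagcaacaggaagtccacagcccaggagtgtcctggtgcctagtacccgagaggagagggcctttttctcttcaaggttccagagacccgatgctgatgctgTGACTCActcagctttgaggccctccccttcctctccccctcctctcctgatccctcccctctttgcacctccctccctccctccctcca

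Col6a2, the chain that neighbours and pairs with Col6a1, had differences of -0.11, -0.44, -0.29 and -0.43 in the same order of comparisons, none called. Col6a3 in wt liver read 6.51 and 6.42 untreated, 6.40 and 6.25 after 2 h, and 6.20 and 6.22 after 6 h. Col6a3 in KO liver read 6.21 and 6.50 untreated, 5.91 and 6.08 after 2 h, and 6.24 and 6.37 after 6 h. Its fall of 0.35 ± 0.12 in KO liver at 2 h (adjusted p = 0.0493) was lost in 6 of 7 other settings and without any 1 of 11 arrays (adjusted p up to 0.318).

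Col6a6 in wt liver read 6.09 and 6.11 untreated, 5.97 and 6.02 after 2 h, and 5.86 and 6.09 after 6 h. Col6a6 in KO liver read 6.13 and 6.17 untreated, 5.82 and 5.84 after 2 h, and 5.82 and 5.80 after 6 h. The 4 treated KO arrays lay below the untreated KO arrays, with falls of 0.32 (adjusted p = 0.0361) and 0.34 (adjusted p = 0.0261). Both were lost when its probe sets were averaged (adjusted p = 0.507 and 0.745), after quantile normalization and with the compared groups alone. They were also lost without any 1 of 8 and any 1 of 4 arrays (up to 0.152 and 0.121). Col6a4 and Col6a5 were called in no comparison.

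Both multiplexins fell. Col18a1, whose C-terminal fragment is endostatin and which sits in liver basement membranes, was the only collagen called in all 4 treated comparisons. In wt liver Col18a1 read 9.91 and 9.98 untreated, 9.48 on both arrays after 2 h, and 8.86 and 8.92 after 6 h. In KO liver Col18a1 read 9.81 and 9.87 untreated, 9.30 and 9.27 after 2 h, and 8.72 and 9.06 after 6 h. The 3 groups of each genotype did not overlap, and the level stepped down from untreated to 2 h to 6 h in both. Col18a1 fell by 0.47 ± 0.12 (adjusted p = 0.0252) and 1.06 ± 0.12 (2.08-fold, adjusted p = 9.14e-05) in wt liver, and by 0.56 ± 0.12 (adjusted p = 0.00562) and 0.95 ± 0.12 (1.93-fold, adjusted p = 0.000199) in KO liver. The differences between responses were -0.09 (95% interval -0.45 to 0.27) at 2 h and 0.11 (-0.25 to 0.48) at 6 h. The wt 2 h call was lost without any 1 of the 4 arrays compared (adjusted p up to 0.146), and the other 3 calls were kept under every alternative.

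Col15a1, the related chain found at vessel and muscle basement membranes, read 6.83 and 7.26 in untreated wt liver, 6.82 and 6.61 after 2 h, and 6.47 and 6.38 after 6 h. Col15a1 in KO liver read 7.01 and 7.17 untreated, 6.24 and 6.58 after 2 h, and 6.42 and 6.70 after 6 h. Every treated array lay below the untreated arrays of its genotype. It fell by 0.62 ± 0.17 in wt liver at 6 h (1.54-fold, adjusted p = 0.0153), by 0.68 ± 0.17 in KO liver at 2 h (1.61-fold, adjusted p = 0.013) and by 0.53 ± 0.17 at 6 h (adjusted p = 0.0344). The calls were lost without any 1 of 2, 2 and 3 of the 4 arrays compared (adjusted p up to 0.141, 0.0908 and 0.203).

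Col8a1 and Col8a2 had the lowest means of the 42. Col8a1, a network chain made by vessel walls, read 5.38 and 5.73 in untreated wt liver, 4.87 and 5.32 after 2 h, and 5.18 and 5.11 after 6 h. Col8a1 in KO liver read 5.54 and 5.57 untreated, 3.30 and 4.74 after 2 h, and 4.90 and 5.63 after 6 h. The KO arrays at 2 h were the lowest and stood far apart from each other. The fall was 1.54 ± 0.39 (2.90-fold, adjusted p = 0.0136), and the value ranged from -2.26 to -0.81 over the alternatives. The call was lost without either untreated KO array or KO 2 h replicate 1 (adjusted p up to 0.0697).

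Col8a2, its partner chain, read 4.93 and 5.23 in untreated wt liver, 5.40 and 5.49 after 2 h, and 5.52 and 5.11 after 6 h. Col8a2 in KO liver read 4.99 and 4.69 untreated, 5.55 and 5.33 after 2 h, and 5.40 and 4.87 after 6 h. The KO arrays at 2 h lay above the untreated ones, a rise of 0.60 ± 0.20 (adjusted p = 0.0427) that was lost without any 1 of 6 arrays (adjusted p up to 0.231). Col28a1, a chain resembling type VI collagen, read 6.59 and 6.68 in untreated wt liver, 6.77 and 6.29 after 2 h, and 6.26 and 6.17 after 6 h. Col28a1 in KO liver read 6.49 and 6.44 untreated, 6.64 and 6.62 after 2 h, and 6.44 and 6.36 after 6 h. The wt arrays at 6 h were the lowest, with a fall of 0.42 ± 0.14 (adjusted p = 0.038) that was lost without any 1 of 6 arrays (up to 0.164). Col10a1, Col26a1 and the transmembrane chains Col13a1, Col17a1, Col23a1 and Col25a1 were called in no comparison. Of the 42 collagens, 23 had no call, and their differences after treatment lay between -0.52 for Col14a1 and 0.33 for Col13a1, both in wt liver at 6 h.

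Between the genotypes, in untreated liver no collagen was called by limma, with 0.00586% of all genes called, and 1 collagen, Col12a1, had an unadjusted p under 0.05 (0.0343). Their differences ran from -0.24 to 0.32. At 2 h 2 were lower in KO, Col12a1 and Col9a2, where 2.01% of all genes were called. At 6 h Col12a1, Col4a2 and Col9a2 were lower and Col27a1 higher in KO, where 9.02% were called, 4.09% higher and 4.93% lower. Over the mean of the 3 conditions Col12a1 and Col9a2 were lower, by -0.77 ± 0.08 and -0.35 ± 0.07, where 1.78% were called. The Col9a2 call over the mean was lost after quantile normalization and without any 1 of 9 arrays (adjusted p up to 0.0934). The collagens called made up 4.76%, 9.52% and 4.76% of the 42 at 2 h, at 6 h and over the mean. The medians of the 42 were 0.00, -0.10, -0.04 and -0.05, against -0.01, -0.10, 0.01 and -0.03 over all genes. The count at 6 h was 1 without KO 6 h replicate 2 or without wt 6 h replicate 1.

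Without the array labelled untreated KO replicate 2, 19 of the 44 calls were lost. In KO liver the falls then stood at -0.60 (adjusted p = 0.0849) at 2 h and -0.45 (0.168) at 6 h for Col15a1, -0.47 (0.0998) at 6 h for Col6a1, and -0.27 (0.168) at 6 h for Col5a1. Col6a6 stood at -0.30 (0.152) at 2 h and -0.31 (0.121) at 6 h, Col6a3 at -0.21 (0.318), Col8a1 at -1.52 (0.0653), Col8a2 at 0.45 (0.231) and Col19a1 at 0.39 (0.0933), all at 2 h. Col4a5 in KO liver at 6 h stood at -0.58 (0.0553), and the falls of Col4a5, Col6a1 and Col28a1 in wt liver at 6 h kept their values with adjusted p of 0.0614, 0.0579 and 0.0526. Col9a2 between genotypes had 0.0514 at 2 h, 0.0627 at 6 h and 0.0564 over the mean, and the difference between responses of Col12a1 at 6 h was -1.34 (0.0537).

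Leaving out any 1 array leaves 1 array in its group. Calls were lost without other arrays too, KO 6 h replicate 1 among them. The losses need not be particular to the arrays named here. Without KO 6 h replicate 2, calls were also lost. That difference of Col12a1 was then -1.11 (adjusted p = 0.0748), and KO minus wt at 6 h was -0.41 (0.178) for Col4a2, 0.57 (0.115) for Col27a1 and -0.45 (0.153) for Col9a2, with -0.36 (0.0602) for Col9a2 over the mean. In KO liver at 6 h Col5a1 stood at -0.35 (0.089) and Col6a6 at -0.32 (0.0846), and Col6a3 in KO and Col3a1 in wt liver at 2 h had adjusted p of 0.0535 and 0.0532.

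Of the genes that fold and modify collagen chains, 18 were measured. None rose and 2 fell in wt liver at 2 h, and 5 rose and 2 fell at 6 h. In KO liver 2 rose and 2 fell at 2 h, and 4 rose and 3 fell at 6 h. Shares called were 11.1%, 38.9%, 22.2% and 38.9% in that order, against 12.7%, 38.4%, 31.4% and 34.9% of all genes. P4ha1, a catalytic subunit of the prolyl 4-hydroxylase that stabilises the helix, rose by 1.29 ± 0.41 in KO liver at 2 h (adjusted p = 0.0349). Those 2 arrays stood far apart, at 10.45 and 9.11. In wt liver P4ha1 read 8.62 and 7.84 untreated and 9.63 and 9.89 after 6 h, a larger difference of 1.53. P4ha2, the other such subunit, rose by 1.09 ± 0.20 in KO liver at 6 h (adjusted p = 0.00188) and by 0.72 in wt liver, and was higher in KO than in wt at 6 h by 0.76 ± 0.20 (adjusted p = 0.039). Plod2, a lysyl hydroxylase that sets the type of crosslink, rose by 0.68 ± 0.17 in wt liver at 6 h (adjusted p = 0.00877). Mia3, which loads procollagen into transport vesicles, fell in all 4 treated groups, by 0.42 and 0.98 in wt and by 0.33 and 0.54 in KO liver.

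Among 10 genes that process and crosslink procollagen, 1 rose in wt liver at 2 h, 3 rose and 4 fell at 6 h, 1 rose and 2 fell in KO liver at 2 h, and 2 rose and 2 fell at 6 h. Called shares were 10%, 70%, 30% and 40%, against 12.7%, 38.4%, 31.4% and 34.9% of all genes. Lox, the lysyl oxidase, rose at 6 h in wt liver by 0.71 ± 0.19 (adjusted p = 0.0144), and in KO liver by 0.67 at 2 h and 0.62 at 6 h. Bmp1, the procollagen C-proteinase, fell by 0.80 and 0.85 at 6 h. Its enhancer Pcolce fell by 0.85 in wt and 0.54 in KO liver at 6 h.

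Of 16 genes that break down collagen or inhibit its breakdown, 1 rose in wt liver at 2 h, and 5 rose and 1 fell at 6 h. In KO liver 1 rose and 2 fell at 2 h, and 3 rose and 1 fell at 6 h. These shares of 6.25%, 37.5%, 18.8% and 25% called lay below the 12.7%, 38.4%, 31.4% and 34.9% of all genes. Mmp8, the neutrophil collagenase, read 3.77 and 3.54 in untreated wt liver, 5.22 and 5.67 after 2 h, and 9.71 and 7.52 after 6 h. In KO liver Mmp8 read 4.14 and 4.17 untreated, 5.12 and 7.45 after 2 h, and 5.42 and 4.51 after 6 h. The wt arrays at 6 h stood above all others, with a rise of 4.96 ± 0.74 (adjusted p = 0.000553), and KO was lower at 6 h by -3.65 ± 0.74 (adjusted p = 0.0187). Its untreated arrays lay far below every array median, so the size of the rise rests on signals near the floor of the arrays. All 4 neutrophil markers measured rose in wt liver at 6 h, and their summed intensity was 1446 to 2864 there against 284 to 345 in KO liver at 6 h. Their part in the Mmp8 value was not tested. Timp3, a matrix-bound inhibitor of the proteases, rose by 1.81 ± 0.23 in wt liver at 6 h (adjusted p = 0.000201) and by 1.01 in KO liver at 2 h, and was lower in KO than in wt at 6 h by -1.66 ± 0.23 (adjusted p = 0.00437). Ctsk, the collagen-cleaving cathepsin K, rose by 0.95 ± 0.21 in wt liver at 2 h (adjusted p = 0.0149) and was then lower in KO than in wt by -1.32 ± 0.21 (adjusted p = 0.0213).

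Of 8 collagen receptors, 2 rose and 1 fell in wt liver at 6 h, 1 fell in KO liver at 2 h, and 1 rose and 1 fell at 6 h, with none called in wt liver at 2 h. Called shares in that order were 37.5%, 12.5%, 25% and 0%, against 38.4%, 31.4%, 34.9% and 12.7% of all genes. Itgb1, the common beta 1 integrin chain, rose by 0.55 and 0.40 at 6 h in wt and KO, while its collagen-binding partner Itga1 fell by 0.43 and 0.47.

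Of 15 other fibril-associated matrix proteins, 1 rose in wt liver at 2 h, and 3 rose and 3 fell at 6 h. In KO liver 1 rose and 1 fell at 2 h, and 1 rose and 2 fell at 6 h. The shares called, 6.67%, 40%, 13.3% and 20%, were near or below the 12.7%, 38.4%, 31.4% and 34.9% of all genes. Thbs1, a matricellular protein that binds latent TGF-beta, read 5.19 and 5.21 in untreated wt liver, 8.32 and 8.39 after 2 h, and 10.61 and 10.24 after 6 h. In KO liver Thbs1 read 4.47 and 4.40 untreated, 6.79 and 9.71 after 2 h, and 7.45 and 6.24 after 6 h. Every treated array lay above every untreated array, and the KO arrays at 6 h lay below the wt ones by -3.59 ± 0.71 (adjusted p = 0.0166). Both untreated KO arrays also read below both untreated wt arrays. Tnc, tenascin C, a binding partner of fibril surfaces at wound edges, rose by 1.40 ± 0.24 in wt liver at 6 h (adjusted p = 0.00125), and KO minus wt at 6 h was -0.87 (adjusted p = 0.0501).

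TGF-beta and PDGF signalling drive matrix production by stellate cells. Of 17 genes of this list, 4 rose and 2 fell in wt liver at 2 h, and 7 rose and 1 fell at 6 h. In KO liver 4 rose and 2 fell at 2 h, and 5 rose and 1 fell at 6 h. That made 35.3%, 47.1%, 35.3% and 35.3% called, where 12.7%, 38.4%, 31.4% and 34.9% of all genes were. Ccn2, a connective tissue growth factor induced by TGF-beta and YAP, rose by 2.88 ± 0.36 and 2.85 ± 0.36 in wt liver (adjusted p = 0.00079 and 0.000185) and by 2.27 ± 0.36 in KO liver at 2 h (adjusted p = 0.00148). At 6 h KO liver stood 0.85 above untreated, which was not called, and below wt by -1.58 ± 0.36 (adjusted p = 0.0258). Pdgfa, a ligand that attracts stellate cells, rose in all 4 groups, by 0.54, 1.46, 0.74 and 1.85, and Pdgfc fell in all 4, by 1.12, 1.33, 2.03 and 0.74.

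Cell type markers moved beside these values. Over all genes 6.53%, 16.5%, 10.6% and 15.8% rose and 6.17%, 22%, 20.8% and 19.1% fell in the 4 treated comparisons. Of 11 stellate cell markers, 1, 5, 2 and 4 fell and none rose in wt at 2 h and 6 h and KO at 2 h and 6 h, and their summed intensity fell in range from 5708 to 6138 in untreated wt liver to 4548 to 5102 at 6 h. In KO liver those ranges were 4805 to 5770 untreated and 4200 to 4797 at 6 h. Lrat, which stores retinol esters in quiescent stellate cells, read 9.52 and 9.74 in untreated wt liver, 8.27 and 8.08 after 2 h, and 7.48 and 8.75 after 6 h. In KO liver Lrat read 9.67 and 9.08 untreated, 7.94 and 7.62 after 2 h, and 9.11 and 9.49 after 6 h. It fell by 1.46, 1.51 and 1.60 in wt at both times and KO at 2 h, and in KO liver at 6 h the arrays were back among the untreated ones, at a difference of -0.07. Of 5 markers of activated stellate cells and myofibroblasts, 1, 3, 3 and 2 rose and none fell. Tagln rose by 2.62 ± 0.49 in wt liver at 6 h (adjusted p = 0.00204) and Acta2, smooth muscle actin, by 1.13 ± 0.27 (adjusted p = 0.00795).

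The shares of all genes given beside the stellate cell markers apply to the treated comparisons of the following lists too. Of 10 sinusoidal endothelium markers, 1 fell in wt liver at 2 h, 3 rose and 5 fell at 6 h, and 4 and 5 fell in KO liver at 2 h and 6 h. Their summed intensity was 8524 to 8666 in untreated wt and 7554 to 8393 at 6 h, and 8377 to 8982 in untreated KO and 6293 to 7180 at 6 h. Of 6 portal fibroblast markers, 0, 1, 1 and 1 fell and none rose, and their sums were 492 to 506 untreated and 435 to 495 at 6 h in wt, and 488 to 534 and 427 to 463 in KO liver. Of 6 Kupffer cell markers, 2, 4, 2 and 3 fell in the same order and 1 rose in KO liver at 6 h. Of 4 bile duct markers, 2 rose at 6 h in each genotype, and of 6 hepatocyte markers 1 fell at 6 h in each. Among 5 mesothelial markers 1 fell, in KO liver at 2 h, and of 4 pancreas markers 1 fell at 6 h. Of 4 fat markers, 1 rose in wt at 2 h, 1 fell in wt at 6 h and 2 rose in KO at 2 h, and the counts of the 6 muscle markers were the same. No marker of these lists was at 0 on any array, but each had passed the minimum mean, so this does not bear on the tissue. Between genotypes at 6 h, 2 of the 4 bile duct markers were lower in KO, Krt7 by -0.55 and Krt19 by -0.74, and all 4 differences were negative. Their sums were 726 to 1004 in wt and 398 to 848 in KO liver. Of the sinusoidal endothelium markers 2 of 10 were lower, Pecam1 by -0.66 and Cdh5 by -0.85. The differences of that list were split, 6 negative and 4 positive, from -1.51 to 0.5. Of all genes 4.09% were called higher and 4.93% lower in KO at 6 h. Krt7, Krt19, Pecam1 and Cdh5 were named after their values were seen. They moved in the same comparison as Col4a2, called lower, and Col4a1, at -0.66. The part of these cell types in the collagen values was not tested.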

How the data were processed

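Total RNA from mouse liver was measured on 12 Affymetrix Mouse Gene 1.1 ST arrays. The deposited values are linear intensities that the authors summarised with RMA in Affymetrix Expression Console, per the submitters' processing notes, with versions not given in the sources used here. Log2 was taken with no pseudocount, and symbols came from the platform annotation, which can be old. One probe set per gene was kept, the one with the highest mean, and genes with a mean log2 of at least 5 were tested. In R 4.3.3, limma 3.58.1 estimated the 6 group means from all 12 arrays (lmFit, eBayes without a trend, 6 residual and 4.33 prior degrees of freedom), and p-values were adjusted by Benjamini-Hochberg over 17052 genes in each of 10 comparisons. The fit was tested on simulated data. The number of arrays, 2 in a group, limits the precision.

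The collagens and the partner and marker lists were chosen with earlier results of these data known. A collagen is given on every array if it was called anywhere or is Col1a1, and the others by range. Of each partner list up to 4 genes with the smallest p in a comparison are named. Alternatives were the filter, quantile normalization, averaged probe sets, a variance trend, the compared groups alone, replicate number as a block, log2 of the value plus 16, and each array left out. They are given for the collagens only, so how far the calls of partner and marker genes hold was not tested. The replicate numbers showed no pairing of the samples. For 1 array of the wt 2 h group the shortened title was read with its source name.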

Additional observations from a re-analysis of the deposited data

Results flagged for a closer look

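The response of Col12a1 to acetaminophen differed between the genotypes by a test of the difference itself. The KO response minus the wt response was -2.07 on the log2 scale at 2 h (limma, adjusted p = 0.00393) and -1.22 at 6 h (adjusted p = 0.025). The 6 h call was lost without any 1 of 6 of the 12 arrays, either untreated array of either genotype, wt 6 h replicate 1 or KO 6 h replicate 2 (adjusted p up to 0.108). Col12a1 was chosen with this difference known, both values share the untreated arrays, and the cause was not tested.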

How the results depend on the processing

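Of 44 calls of collagens, 14, in Col12a1, Col3a1, Col4a1, Col4a2, Col4a6, Col18a1 and Col27a1, were kept in every setting that tested the gene and without each array; 18 were lost in at least 1 other setting and 29 without at least 1 array. No value of a named collagen changed sign past the threshold. A mean log2 of at least 7 left 7 collagens of 8528 genes, without Col12a1. In wt at 6 h 6 of these 7 were called, as were 5003 of the 8528 genes. The KO counts were 2 at 2 h and 3 at 6 h, with 3996 and 4707 of the 8528. KO against wt gave 0 at 2 h and 2 at 6 h, with 394 and 1388 of the 8528. The count was 0 over the mean of 3 conditions, and 0 for the difference between responses at both times. After quantile normalization 5 were called in KO at 6 h and 1 over the mean of 3 conditions. With the compared groups alone the counts were 5 in KO at 6 h, and 1 and 0 for KO against wt at 2 h and 6 h. Over all genes that setting gave 4907, 52 and 142 calls, against 5949, 342 and 1538 as reported.

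Leaving out 1 array gave 1 to 3 collagens in wt at 2 h, 6 to 14 in wt at 6 h, 3 to 9 in KO at 2 h and 2 to 10 in KO at 6 h. It gave 0 to 0, 1 to 3 and 1 to 4 for KO against wt untreated, at 2 h and at 6 h, 1 to 3 over the mean, and 1 to 1 and 0 to 2 for the difference between responses at 2 h and 6 h. Without untreated KO replicate 2, 3 were called in KO at 2 h and 5 at 6 h. The number called over all genes also changed with the array left out, so these changes need not be particular to collagens. The replicate block gave 2, 12, 9 and 8 collagens in the 4 treated comparisons. Replicate 1 minus replicate 2, taken per gene in each group, correlated between groups at -0.134 to 0.185 over 15 pairs of groups. The numbers therefore show no pairing. Quantile normalization moved the share of higher calls over all genes from 33.9% to 44.7% in KO at 2 h, from 20.5% to 50.3% for KO against wt at 2 h, and from 18.4% to 38.7% over the mean of 3 conditions. The cause of these changes was not tested.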
